A study of Drosophila melanogaster with 6 samples.

Results

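Fat-spondin, Glt, crq, Ance, Nplp2, spz and Drs are 7 genes whose products are secreted or lie on the cell surface: matrix proteins, products of the fly's blood cells, the ligand gene of the Toll receptor and a peptide gene that Toll signalling induces. They were taken from the study as a list of current gene symbols and matched to the array annotation by Entrez gene number. All 7 were found among the 6795 genes named on the S3 arrays, with 2 neighbouring spots each, and 0 among the 2377 genes named on the ovary arrays. The list was drawn up with ratios of these S3 arrays in view, so the S3 values of the 7 genes are given as a description, with no test.

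RNA from Drosophila melanogaster cells or ovaries given methotrexate was set against RNA of untreated ones on 2-colour spotted cDNA arrays. Methotrexate is an antifolate drug. S3 cells, a line of embryonic origin grown in culture, had 5.2e-08 M of the drug for 4 days (4 arrays), and flies had 5 ppm for 5 days before their ovaries were dissected (2 arrays of another design). The other RNA on each array came from untreated cells or ovaries. No genotype, strain or age is given for cells or flies, and nothing says that the arrays of a group used separate cultures or flies, so the spread between arrays may be technical. The arrays give ratios and no levels, so the labelled cell type could not be checked against the level of its markers, and fewer cells of a type cannot be told apart from less RNA per cell.

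Drosophila blood cells, called hemocytes, engulf dying cells and microbes and lay down much of the basement membrane, the sheet of matrix under tissues. In the Toll pathway, proteases cut the Spätzle protein, cut Spätzle binds the receptor Toll, and adaptors then free the NF-kappaB factors Dorsal and Dif from the inhibitor Cactus. The pathway patterns the early embryo, and in the fat body and blood cells it turns on genes of antimicrobial peptides.

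All S3 arrays had untreated RNA in channel 1 and treated RNA in channel 2, with Cy3 on the treated RNA of arrays 1, 3 and 4 and Cy5 on that of array 2. The deposited log ratios, taken as log2, do not say which channel is the numerator. A ratio by channel would run the same way on all 4 arrays, and a ratio by dye would run the other way on array 2. The sign of a value therefore has no direction relative to the drug here. Print blocks are taken here as 48 groups of spots printed together, a layout that was inferred and that no label states. S3 arrays 1 to 3 showed no peak at its period. Block medians ranged from -0.43 to 0.54 over the 4 arrays, and each block was centred on its median here. Over genes, pairs of arrays then correlated at r from 0.0605 to 0.180. With array medians centred instead, array 2 correlated with arrays 1, 3 and 4 at r = -0.187, -0.0798 and 0.198, and its block medians with theirs at r = -0.915, -0.834 and 0.654. Array 4, which has the dyes of arrays 1 and 3, also had block medians opposite to theirs, at r = -0.744 and -0.511. Opposite block medians are thus not particular to the array with swapped dyes. Genes are not independent replicates, and the arrays share the print layout. Over all 6764 genes with a value on every S3 array, limma called 0 (0.0%) with its adjusted p held under 0.05. Before adjustment 644 genes (9.52%) had a p under 0.05.

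All 7 genes had negative mean log2 ratios on the S3 arrays, from -1.73 for fat-spondin to -0.95 for crq. The values that chose the genes come from these arrays, so their common side is no finding. Of the 56 values of the 14 spots, 53 were negative and 3 positive, with a median of -1.20 and a range from -2.65 to 0.20. Of the 7 genes, 6 were negative on all 4 arrays, as were 646 (9.55%) of all genes. All 8 spot values were negative for Ance, crq, fat-spondin and spz, as for 129 (2.22%) of the 5800 genes with 2 fully measured spots. Glt, Nplp2 and Drs each had 1 positive spot value, so that all 7 had at least 7 negative ones, as had 462 (7.97%) of the 5800. Means at or below that of crq were seen for 41 genes, 0.606% of all.

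**Figure D1:**
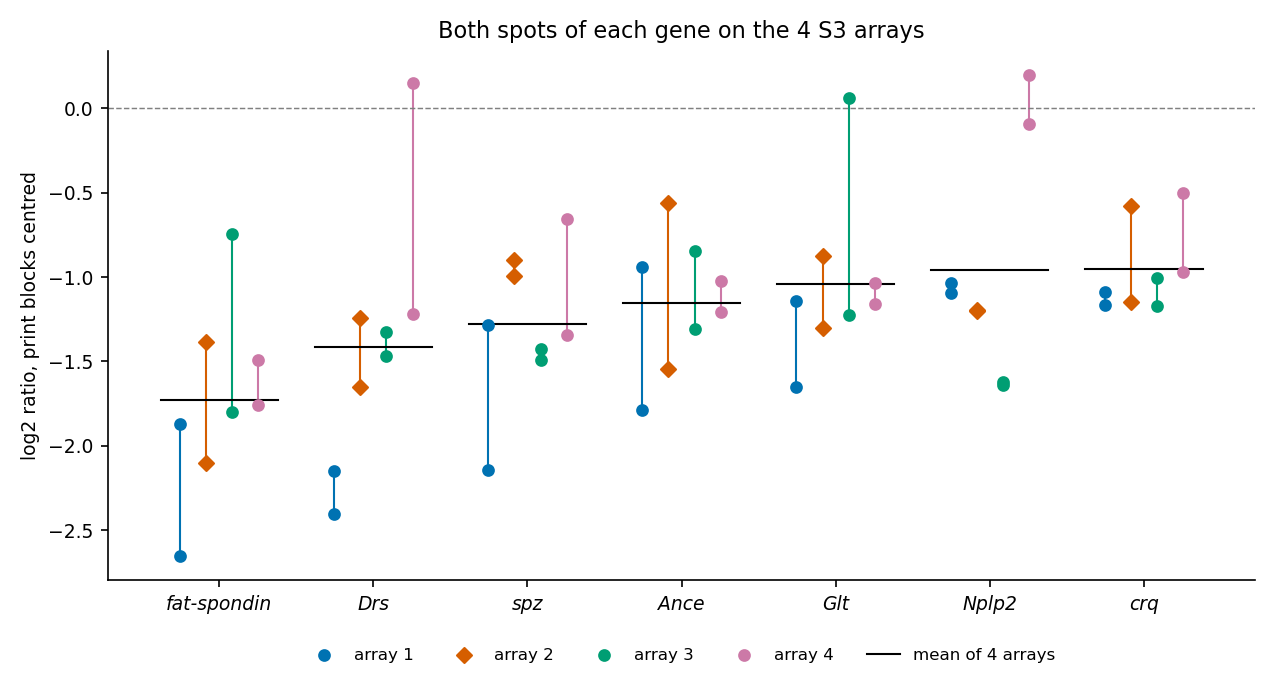
Log2 ratios with print blocks centred (vertical axis) for both spots of the 7 genes on each S3 array; a line joins the spots of an array, diamonds mark array 2 and black bars the mean over 4 arrays. Of the 56 values 3 lie above 0, at Drs and Nplp2 on array 4 and Glt on array 3.

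**Figure D2:**
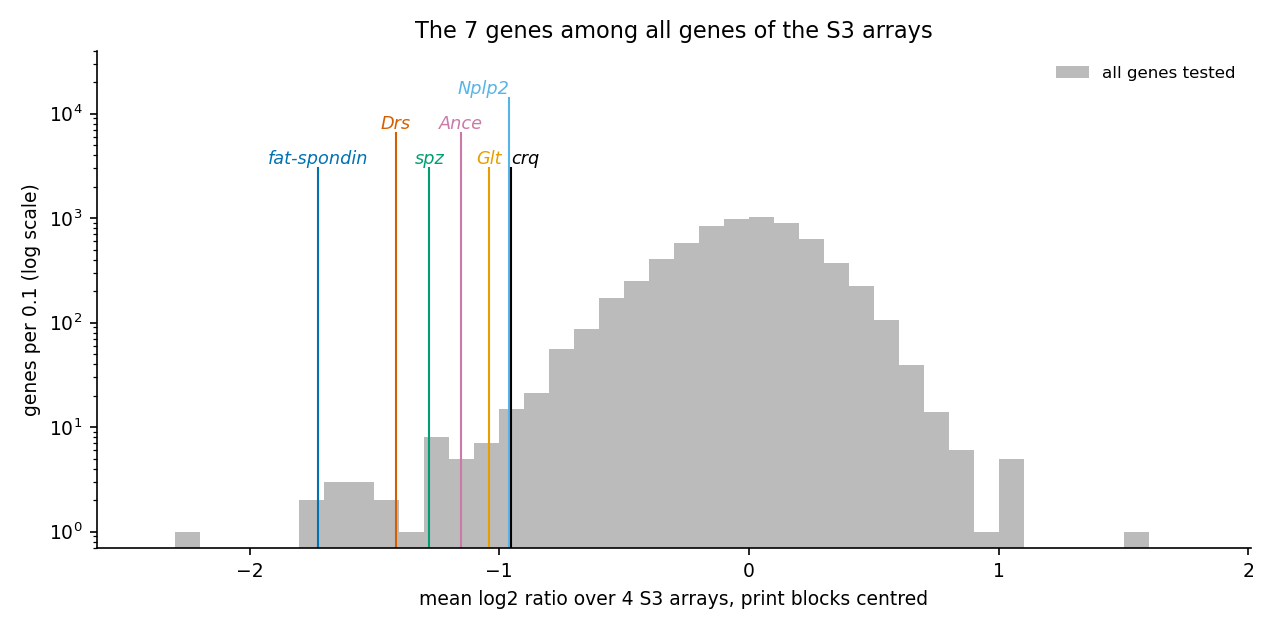
Number of genes per 0.1 of mean log2 ratio (log axis) over the 4 S3 arrays with print blocks centred, for all 6764 genes tested; coloured lines mark the means of the 7 genes, which lie between -1.73 and -0.95 in the negative tail.

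The matrix genes come first. fat-spondin encodes a secreted protein of the spondin family of matrix proteins. Its log2 ratios were -2.26, -1.74, -1.27 and -1.63 on S3 arrays 1 to 4. It was lowest on array 1 and nearest 0 on array 3, and no array came near 0. The mean was -1.73 ± 0.41 (SD, n = 4), rank 3 of 6764 counted from the most negative mean. It is a 3.31-fold difference between numerator and denominator as deposited. Such a fold difference, here and below, is one between channels only if the ratio is by channel. On array 3 its spots differed most, at -0.75 and -1.80.

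Glt encodes glutactin, a basement membrane glycoprotein whose sequence resembles cholinesterases. The log2 ratios of Glt were -1.40, -1.09, -0.58 and -1.10 on arrays 1 to 4. The value of array 3 joins spots at 0.06 and -1.23, a gap of 1.29, so it says little by itself. The mean was -1.04 ± 0.34 (SD, n = 4), rank 30.

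crq encodes Croquemort, a receptor of the CD36 family with which embryonic macrophages take up dying cells. Its log2 ratios were -1.13, -0.86, -1.09 and -0.73 on arrays 1 to 4. These 4 values lay close together, and the spots never differed by more than 0.57. The mean was -0.95 ± 0.19 (SD, n = 4), a 1.94-fold difference between numerator and denominator.

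Ance encodes a secreted homologue of angiotensin-converting enzyme, a peptidase that trims short peptides. On arrays 1 to 4 its log2 ratios were -1.37, -1.05, -1.08 and -1.11, the narrowest spread of the 7 genes. The mean was -1.15 ± 0.14 (SD, n = 4), a 2.22-fold difference. Single spots were less even than their averages: on array 2 they read -1.54 and -0.56, and on array 1 -1.79 and -0.94.

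Nplp2 encodes a neuropeptide-like precursor, which the reference annotation also lists under names given to immune-induced molecules of the hemolymph. Its log2 ratios were -1.07, -1.20, -1.63 and 0.05 on arrays 1 to 4. Arrays 1 to 3 were all below -1, while array 4 lay at 0 with both spots (-0.09 and 0.20). The spots agreed within 0.29 on every array, the closest agreement among the 7 genes, so the gap between array 4 and the others is not one between spots. The mean was -0.96 ± 0.72 (SD, n = 4), and without array 4 it was -1.2975.

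spz encodes Spätzle, the secreted ligand of Toll. S3 arrays 1 to 4 gave it log2 ratios of -1.72, -0.95, -1.46 and -1.0. Arrays 1 and 3 lay lower than arrays 2 and 4, and all 8 spot values were negative, from -2.14 to -0.66. The mean was -1.28 ± 0.37 (SD, n = 4), a 2.43-fold difference and rank 13.

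Drs encodes drosomycin, an antifungal peptide that is a standard readout of Toll signalling. Its log2 ratios were -2.28, -1.45, -1.40 and -0.53 on arrays 1 to 4. On array 1 Drs was the lowest of the 7 genes, and its own value nearest 0 was that of array 4. On array 4 the spots disagreed, at -1.22 and 0.15. The mean was -1.41 ± 0.71 (SD, n = 4), a 2.66-fold difference and rank 11.

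From the most negative mean upward the order was fat-spondin, Drs, spz, Ance, Glt, Nplp2 and crq. No neighbours in this order differed by more than the spread of their difference over arrays, and for each such pair the first gene was the lower on 2 of 4 arrays. The ends of the order stand furthest apart by construction: fat-spondin minus crq was -0.77 ± 0.41 (SD, n = 4), with fat-spondin lower on 4 of 4 arrays. This pair was picked by the same values, so its gap is no finding. By array, the median log2 ratio of the 7 genes was -1.40, -1.09, -1.27 and -1.0 on arrays 1 to 4. On array 4 the values of all genes were spread widest, with a 5th percentile of -0.96, and Nplp2 and Drs lay above that percentile there, as did crq at -0.73. All 7 lay below the 5th percentile on array 1 (-0.82) and on array 2 (-0.71). On array 3, with a 5th percentile of -0.83, Glt lay above it at -0.58.

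Neighbouring spots of the 7 genes had a median absolute difference of 0.51, 0.42, 0.17 and 0.29 on arrays 1 to 4. Over all pairs of neighbouring spots of a gene the values were 0.40, 0.35, 0.34 and 0.40. The spots of such pairs correlated only at r = 0.172, 0.143, 0.259 and 0.436 on S3 arrays 1 to 4, with blocks centred. On ovary arrays 1 and 2, with array medians centred, neighbouring spots correlated at r = 0.903 and 0.841. The genes lie in 7 different inferred print blocks, whose medians ranged from -0.39 to 0.54. As deposited, with no centring, 53 of the 56 spot values were likewise negative, the same number as with blocks centred.

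How far the means reach depends on array 2, whose direction is not known. All 7 genes were negative on it as deposited and with blocks centred, from -1.74 for fat-spondin to -0.86 for crq. The mean of arrays 1, 3 and 4, which share dyes and channels, was -1.72 ± 0.50 for fat-spondin, -1.40 ± 0.87 for Drs, -1.39 ± 0.36 for spz and -1.19 ± 0.16 for Ance (SD, n = 3 each). For Glt, crq and Nplp2 it was -1.03 ± 0.41, -0.98 ± 0.22 and -0.88 ± 0.86 (SD, n = 3 each). If the ratio is by dye, array 2 has to be turned, and the means with blocks centred were then -0.85 for fat-spondin, -0.81 for spz, -0.69 for Drs, -0.63 for Ance, -0.52 for crq, -0.50 for Glt and -0.36 for Nplp2. In that reading each gene would stand on one side of the drug comparison on arrays 1 and 3 and on the other on array 2. A difference that follows the drug and one that follows the dye cannot be told apart here.

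**Figure D3:**
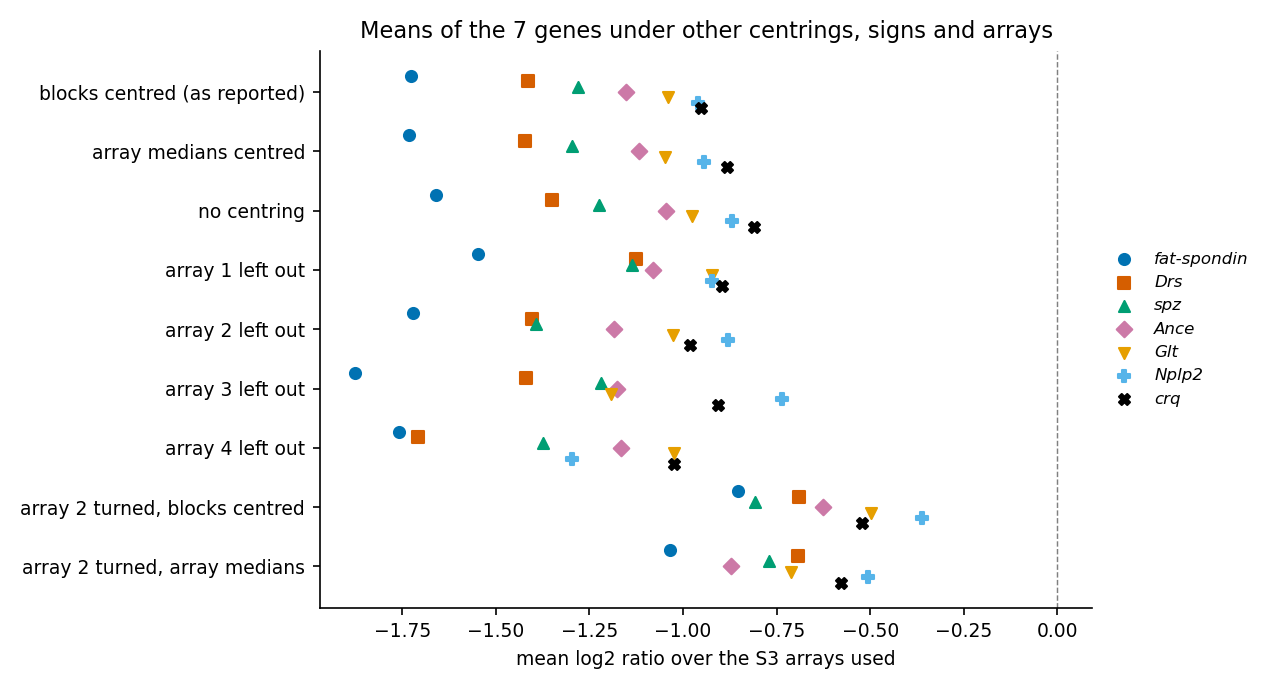
Mean log2 ratio of each of the 7 genes (horizontal axis) on the S3 arrays as reported and under other centrings, with 1 array left out, or with the sign of array 2 turned. All means lie below 0, and those with array 2 turned lie nearest to it, from -1.03 to -0.36.

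For each gene the 2 nearest genes over the 4 S3 arrays were sought by Euclidean distance among 6764 genes. CG10359 was nearest to both Ance (distance 0.304) and Glt (0.398), with a mean of -1.02 ± 0.12 (SD, n = 4). CG7378, at -1.08 ± 0.28 (SD, n = 4), was second for Ance and nearest to spz (0.496). For Nplp2 the nearest was NimC3, a gene of the Nimrod receptor family and of the blood cell list below, at 0.488. Its values were -0.81, -0.88, -1.37 and 0.10 on arrays 1 to 4, a likeness that the search itself selects. NimC1, NimC4 and NimB4 of the same list averaged -0.15, -0.26 and 0.11. NimC4 and NimB4 were named after their values were seen. The second gene for Nplp2 was Npc2b, a sterol-binding protein gene, at 0.571. crq had mrva (0.345) and Nfs1 (0.363) nearest. Some of the 7 genes were near each other: Ance was second for spz, spz second for Drs (after CG5455) and Drs second for fat-spondin, whose nearest gene was Npc2a at a distance of 0.999. The 7 genes were chosen by these same values, and 41 of 6764 genes had means as low as theirs. Nearness among the 7 is therefore no finding. The second gene for Glt was CG17224.

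The rest of the Toll pathway was read from a list of 44 other genes, of which 22 were measured on the S3 arrays. Of these 12 were negative and 10 positive, with a median mean log2 ratio of -0.06, beside -0.005 over all genes. limma called 0 of the 22 in either direction. Before adjustment 2 negative and 1 positive had a p under 0.05, against 6.34% and 3.18% of all genes. The receptor gene Tl had log2 ratios of -0.89, -0.73, -0.60 and 0.16 on arrays 1 to 4, averaging -0.52 ± 0.47 (SD, n = 4; limma adjusted p = 0.509). It was below 0 on arrays 1 to 3 and above it on array 4.

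Downstream of the receptor, the adaptor genes Myd88 and tub were at mean log2 ratios of -0.09 ± 0.23 and 0.08 ± 0.30, and the kinase gene pll at 0.13 ± 0.25 (SD, n = 4 each). The NF-kappaB genes dl and Dif were at -0.13 ± 0.44 and 0.13 ± 0.21 (SD, n = 4 each). Traf6, a signalling adaptor gene, was at -0.24 ± 0.23 (SD, n = 4), negative on 4 of 4 arrays but only at -0.0008 on array 4. Pli, a ubiquitin ligase gene of the Pellino family, was positive on 4 of 4 at 0.41 ± 0.35 (SD, n = 4). Of all 6764 genes, 646 were negative and 670 positive on every array. The genes named here downstream of the receptor all had limma adjusted p of 0.543 or more.

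Upstream of the receptor, SPE, whose protease cuts Spätzle, was at 0.52 ± 0.70, and ea, its embryonic counterpart, at -0.08 ± 0.68 (SD, n = 4 each). The protease gene psh was at -0.05 ± 0.38, and nec, a serpin gene that restrains the pathway, at 0.31 ± 0.39 (SD, n = 4 each). Among other Toll-family receptors 18w was at 0.01 ± 0.44 (SD, n = 4). None of these passed, and the spread of SPE and ea over arrays was larger than their means.

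Of 41 other antimicrobial genes listed, 5 were measured on the S3 arrays, 0 negative and 5 positive by their means, with a median of 0.06 and a highest mean of 0.24. Of all 6764 genes 3330 had positive means, and 0 of the 5 were positive on every array. limma called 0 of the 5, as it called 0 of all genes. The highest mean was of Drsl5, a relative of Drs in the drosomycin family, with log2 ratios of 0.34, -0.02, 0.18 and 0.46 on arrays 1 to 4 (limma adjusted p = 0.658). The Imd pathway, the second arm of fly humoral immunity, had 8 of 23 genes measured, 4 negative and 4 positive, with a median of -0.02 and 0 called. PGRP-LE, which encodes a sensor of bacterial wall fragments, was at -0.60 ± 0.52 (SD, n = 4; limma adjusted p = 0.509).

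Of 39 further blood cell genes, 18 were measured on the S3 arrays, 11 negative and 7 positive. Their means ran from -0.79 to 0.81, with a median of -0.07. limma called 0 of them, as it called 0 of all 6764 genes. Before adjustment 2 positive and 2 negative had a p under 0.05, against 3.18% and 6.34% of all genes. Per array the median of this list lay between -0.24 and 0.25. Hml, the hemolectin gene of plasmatocytes, was at -0.30 ± 0.35, and NimC1, a phagocytosis receptor gene, at -0.15 ± 0.34 (SD, n = 4 each). The receptor genes eater and drpr were at 0.01 ± 0.29 and -0.09 ± 0.30, and the scavenger receptor gene Sr-CII at -0.14 ± 0.52 (SD, n = 4 each).

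Tep4, which encodes a thioester-containing protein of the hemolymph, had log2 ratios of 0.19, -0.77, -0.83 and -1.75, averaging -0.79 ± 0.79 (SD, n = 4; limma adjusted p = 0.501). On the other side Pvr, a receptor gene that blood cells need to survive and migrate, had 0.67, 0.69, 0.25 and 0.34 (limma adjusted p = 0.496). Pvr was positive on 4 of 4 arrays, Tep4 negative on 3. PPO2, a crystal cell enzyme gene, was at 0.14 ± 0.10 (SD, n = 4).

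Of 31 further matrix and matrix receptor genes, 15 were measured, 8 negative and 7 positive, with a median of -0.01. limma called 0 of them, as it called 0 of all 6764 genes. Before adjustment 0 had a p under 0.05, where 9.52% of all genes had. With 15 genes a count of 0 is no finding. The collagen IV genes Col4a1 and vkg were at -0.18 ± 0.15 and -0.36 ± 0.51, and Pxn, the peroxidasin gene, at -0.18 ± 0.31 (SD, n = 4 each). The laminin genes LanA and LanB1 were at 0.51 ± 0.71 and 0.35 ± 0.55, and SPARC, a collagen-binding protein gene, at 0.23 ± 0.87 (SD, n = 4 each). mspo, a spondin gene like fat-spondin, was negative on 4 of 4 arrays at -0.23 ± 0.25 (SD, n = 4). The spread of vkg, LanA, LanB1, Pxn, SPARC and mspo over arrays exceeded the size of their means.

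Relatives of the 7 genes, and genes that share part of their names, were on both sides: 8 of the 12 measured were negative and 4 positive, with a median of -0.07. limma called 0 of the 12, as it called 0 of all 6764 genes. Before adjustment 1 positive and 1 negative had a p under 0.05, against 3.18% and 6.34% of all genes. Acer, a second peptidase gene of the angiotensin-converting enzyme family, had log2 ratios of 0.64, 0.21, 0.06 and 1.502, averaging 0.60 ± 0.65 (SD, n = 4; limma adjusted p = 0.509). Ance-3 was at -0.45 ± 0.69, with a positive value on array 1 (SD, n = 4). Of the CD36 family emp was at -0.03 ± 0.19, pes at -0.12 ± 0.20 and santa-maria at -0.39 ± 0.34 (SD, n = 4 each). Nplp1 was at 0.00 ± 0.12 (SD, n = 4), and Nrt, whose protein has a cholinesterase-like domain as glutactin does, at -0.12 ± 0.46 (SD, n = 4).

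**Figure D4:**
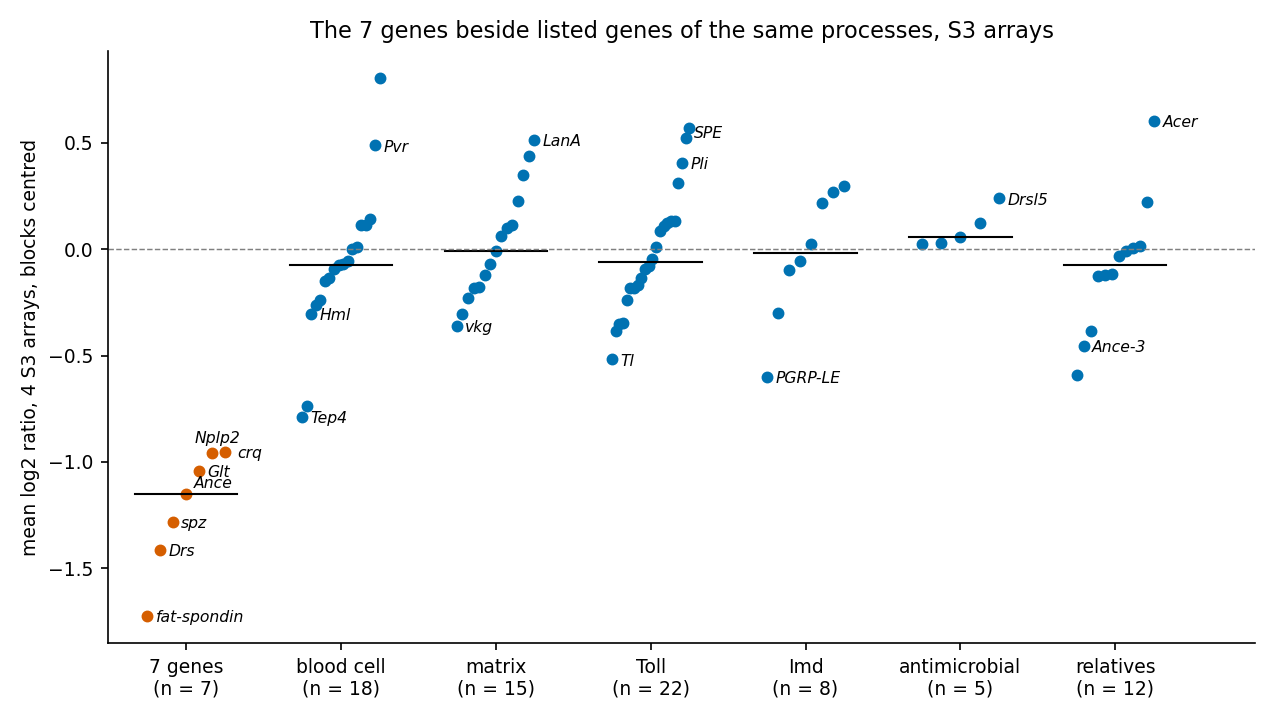
Mean log2 ratio over the 4 S3 arrays with print blocks centred (vertical axis) of the 7 genes and of measured genes of 6 lists; each dot is a gene, black bars are medians and some genes are labelled. List medians lie between -0.07 and 0.06, while the 7 genes, chosen from these ratios, lie at -0.95 or below.

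The ovary arrays carry none of the 7 genes under a single gene name, so for these only the listed genes can be described. Per the labels Cy5 marked the RNA of treated flies on both ovary arrays, and a dye effect of a gene cannot be told apart from an effect of the drug. limma called 926 of 2377 ovary genes (39.0%), 497 positive (20.9%) and 429 negative (18.0%), and without centring 559 positive and 284 negative. With print blocks and rows centred it called 767 (32.3%), of which 501 were shared. The mean log2 ratio of all named genes had a median of -0.14 with array medians centred and -0.02 with blocks and rows centred.

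Of 8 matrix genes on the ovary arrays, 5 were called positive and 0 negative, where 20.9% of all genes were called positive, and their median was 0.84. Pxn had log2 ratios of 1.65 and 1.20, averaging 1.42 ± 0.32 (SD, n = 2; limma adjusted p = 8.88e-06). Ppn, the gene of the matrix protein papilin, had 0.76 and 1.63 (limma adjusted p = 2.17e-04). After centring of blocks and rows 3 of the 8 were called positive (17.8% of all genes), Pxn and Ppn among them at 1.22 and 1.03. vkg at -0.53 ± 0.07, trol at 0.22 ± 0.18 and SPARC at -0.64 ± 0.25 were not called (SD, n = 2 each; limma adjusted p from 0.0526 to 0.513). After centring of blocks and rows vkg and trol lay on the other side of 0, at 0.16 and -0.02, SPARC was at -0.43, and none of these 3 was called.

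Of 4 Toll pathway genes on the ovary arrays, 2 were called positive and 0 negative under both centrings, where 20.9% and 17.8% of all genes were called positive. Toll-7, a receptor gene of the Toll family, had log2 ratios of 1.08 and 1.01 (limma adjusted p = 0.00138), and sphe, a gene for a protease homologue, 1.25 and 0.89 (limma adjusted p = 9.94e-04). These were named after their values were seen. Dif at 0.24 and -0.47 and Spn27A, the gene of a serpin that limits Toll activation, at -0.50 and 0.02 had opposite signs on the arrays and were not called. Of 4 blood cell genes 0 were called with array medians centred. NimC1, at -0.65 and -0.45 (limma adjusted p = 0.0946), was called once blocks and rows were centred, at -0.85 (limma adjusted p = 0.00184). With that centring 345 of all 2377 genes were called negative. The 4 blood cell genes were then 2 negative and 2 positive. Pvr was at 0.26, and Tep4 at 0.14, after -0.61 with array medians centred. Nplp1, a namesake of Nplp2, was called positive at 0.88 ± 1.39 (SD, n = 2; limma adjusted p = 0.00694) although its values were 1.87 and -0.10.

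Markers of other ovary cells were nearly missing from the named genes: 0 of 22 follicle and eggshell genes and 1 of 23 germline genes were measured there. That germline gene, exu, named after its value was seen, was at -0.04, and at 0.29 after centring of blocks and rows. Of 4 fat body genes 1 was called, on the negative side, where 18.0% of all genes were called negative. This was Obp99b, at -0.77 ± 0.10 (SD, n = 2; limma adjusted p = 0.0196). After centring of blocks and rows it was not called, at -0.26. It was named after its value was seen, and the part of such cells in the ovary ratios was not tested.

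**Figure D5:**
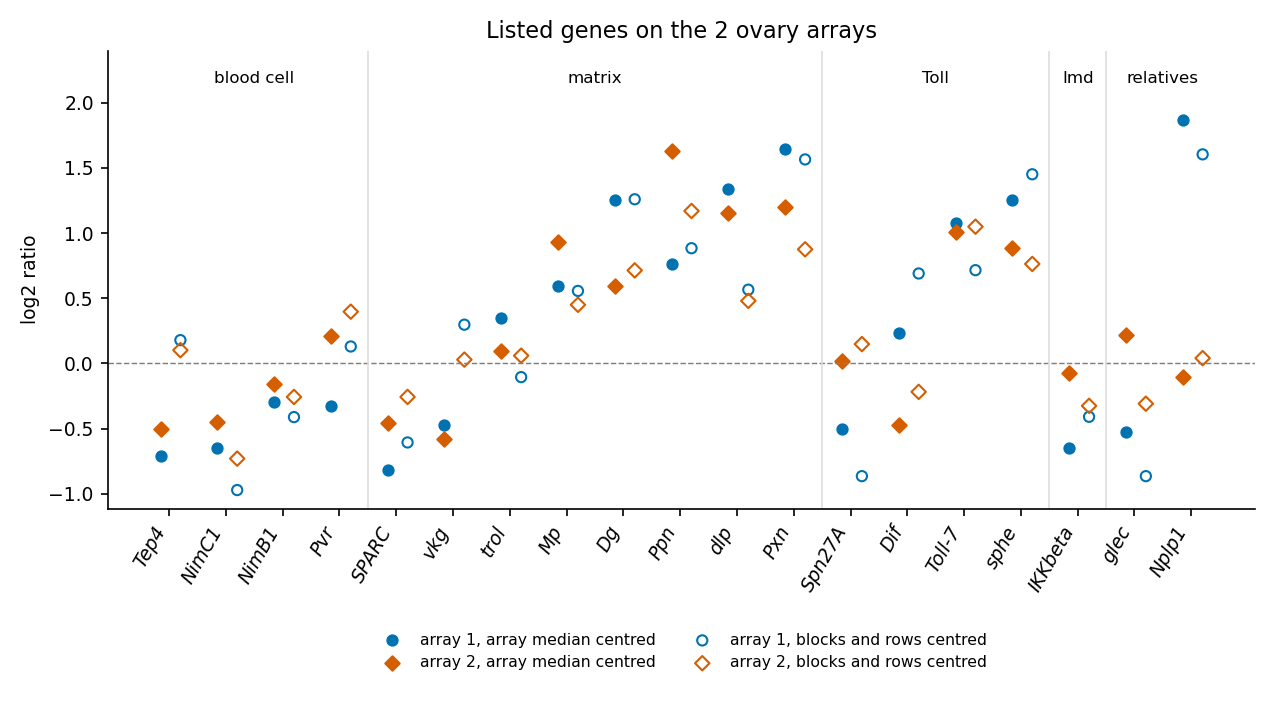
Log2 ratios (vertical axis) of the listed blood cell, matrix, Toll, Imd and related genes on ovary arrays 1 (circles) and 2 (diamonds), with array medians centred (filled) or blocks and rows centred (open). Pxn, Ppn, Toll-7 and sphe are above 0.7 on both arrays under either centring, and Nplp1 lies at 1.87 and -0.10.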

How the data were processed

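The deposited values are log ratios, taken as log2, of the 2 channels of each array. The log base, numerator, background correction and normalisation of the deposited log2 ratios are not given in the sources used here. Deposited array medians were 0.08, -0.02, 0.06 and 0.18 for S3 and 0.11 and 0.06 for ovary, so scale and direction stay unknown. Signal over background was not used here, and the number of arrays limits the precision.

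Spots with 1 gene in the platform annotation (15116 on the S3 design and 5666 on the ovary design) were named by current symbols of Release 6 through Entrez numbers, and averaged per gene. Print blocks (48 of 576 spots on S3, 32 of 528 spots in 22 rows on ovary) are not stated in the labels. They were inferred from the period of the values: at a lag of 1 block the values correlated at 0.194 and 0.216 on the ovary arrays, above lags 1 row shorter or longer, and at 0.0427 on S3 array 4, while S3 arrays 1 to 3 showed no such peak. S3 blocks and ovary arrays were centred on their medians, with all arrays in their deposited sign. Means were tested against 0, two-sided, with limma 3.58.1 in R 4.3.3 (lmFit, eBayes, Benjamini-Hochberg over all genes, threshold 0.05), S3 and ovary apart. The test was run on simulated, independent normal ratios without dye or print effects, so that run does not check it against such effects. Tables were made in Python 3.11.15 (pandas 2.3.3) and figures with matplotlib 3.10.9.

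The 7 genes and the lists were chosen with earlier results of these data known. Named genes are the 7, their 2 nearest genes, and list genes marked for naming beforehand, with exceptions stated. Alternatives covered centring, the sign of array 2, scale, the summary over spots, the variance prior, missing values, the threshold and each array left out. No sequences or genome positions are given.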

Additional observations from a re-analysis of the deposited data

Results flagged for a closer look

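Of 61 genes whose 4 S3 values were examined for a lone value, 2 had an array whose gap to the others took most of the range, against about 1 in 20 by chance. Nplp3, a neuropeptide-like precursor gene, was at a log2 ratio of 2.14 on array 3, with the other arrays between -0.69 and -0.24. glec, the gliolectin gene, was at -0.19 on array 3, with the others between -0.74 and -0.69. None of the 7 genes was among them.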

How the results depend on the processing

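The means of the 7 genes, chosen for their side on these arrays, ran from -1.88 to -0.36 over the alternatives of centring, sign, scale and arrays. The summary over spots and the filter on missing values could not move them, since each gene has 2 spots and a value on every array. The 11 values that moved by more than 1 SD between arrays all had array 2 turned. The number of S3 genes called, 0 as reported, was 9 at an adjusted p under 0.10 (0.133% of genes), 3 with array medians centred, 5 without centring, 2 with equal scale between arrays and 3 with medians over spots. All of these were negative. Leaving out 1 array gave 0 to 1 calls, the 1 being CG15347 without array 2, named after its value was seen. Calls on any of the 7 genes are not listed, because these values chose them. On the ovary arrays 0 genes were called with array 2 turned, and 0 to 120 with 1 array left out, in a joint fit with S3 that assumes the lone array varies like those. Robust eBayes, row centring and genes on at least 3 arrays left the S3 count at 0. No paired analysis was possible because each array itself pairs treated with untreated RNA, and S3 and ovary arrays share only their numbers. Each gene rests on 2 spots and 4 arrays, and dim spots could not be left out.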

Other observations

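Among 14 germline genes measured on the S3 arrays, 7 were negative and 7 positive, with a median log2 ratio of -0.01. limma called 0 of them, as it called 0 of all 6764 genes. Before adjustment 1 positive and 2 negative had a p under 0.05, against 3.18% and 6.34% of all genes. The lowest of the 14, aub, a Piwi-family gene of transposon silencing, was at -0.72, -0.48, -1.53 and -1.87 on arrays 1 to 4, within the range of the 7 genes (limma adjusted p = 0.218). The highest, otu, was at 0.85, 1.52, 0.35 and 0.29 (limma adjusted p = 0.458), and both were named after their values were seen. Of 9 fat body genes measured on the S3 arrays, 6 were negative and 3 positive, with a median of -0.06 and 0 called, and of 3 yolk protein genes 2 were negative, with a median of -0.08.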
